A study of Arabidopsis thaliana with 18 samples.

Results

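UDP-glycosyltransferase (UGT) transcripts were examined in seedlings of Arabidopsis thaliana. The members were the rows of the deposited expression table whose description or Swiss-Prot match names a UDP-glycosyltransferase and that reached 1 TPM (a share of all transcripts in a library, per transcript length) in at least 3 libraries. Of 33082 genes listed, 137 rows carried the name and 112 reached that level, which 21727 genes of the whole table also did. The level of a row in its third-highest library decides whether it is kept. Just inside the limit were UGT85A3, UGT79B5 and UGT76C3 at 1.16, 1.19 and 1.25 TPM, and just outside were UGT79B3, UGT90A2 and AT4G09385 at 0.86, 0.71 and 0.69 TPM. The 112 members comprised 92 UGT genes, 91 of them with the annotated glycosyltransferase domain. A further 11 were loci on the opposite strand that overlap a UGT gene. The remaining 9 were other proteins or fragments, among them the clock protein BOA, whose locus overlaps UGT76E1 on the opposite strand. The sources used here do not say whether the libraries kept strand, so reads of such overlapping partners cannot be told apart.

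UGT enzymes transfer a sugar from a UDP-sugar, usually UDP-glucose, to a hormone, a phenolic or flavonoid compound or a xenobiotic. The conjugate is more soluble, often inactive, and can be stored in the vacuole, where some conjugates are later hydrolysed back to the active compound. The abscisic acid (ABA) glucosyl ester is such a store, and glucosylation is also a route of inactivation for auxins, cytokinins, brassinosteroids and salicylate. The plant family is large, with many tandem copies of unequal substrate range.

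The seedlings were of the Col-0 accession and 9 days old. They were wild type (WT) or carried the mutant combination that the labels call bon123t, written bon123, which combines mutations in BON1, BON2 and BON3 (the BONZAI genes, for copines that bind membrane lipids with calcium). Each genotype received a mock treatment, 300 mM mannitol, an osmoticum, or 100 µM ABA, a stress hormone. The plates held 1/2 MS medium, and each of the 6 groups had 3 libraries, 18 in all. Treatment lasted 12 h by the sample labels and 24 h by the series text, so its length is uncertain.

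In the labelled bon123 libraries BON1 was at 0.25 to 1.66 TPM, against 10.1 to 18.3 TPM in WT. BON2 was at 2.85 to 16.2 TPM against 21.3 to 36.3 TPM, and BON3 did not exceed 0.17 TPM in WT libraries but was at 0.22 to 0.75 TPM in bon123. The labels say seedlings, but the sum of 6 green shoot markers (Rubisco, its activase, photosystem, photorespiration and carbonic anhydrase genes) was 169 to 1156 TPM in bon123 libraries and 14695 to 32237 TPM in WT libraries. One of these markers, the carbonic anhydrase BCA1, was at 0.38 to 12.9 TPM in bon123 and at 426 to 2148 TPM in WT. All 6 were called lower in bon123 under each treatment. The sum of 8 root markers was dominated by the root glucosidase BGLU23, at 15044 to 16411 TPM in bon123 mock, 11179 to 15176 TPM in bon123 mannitol, 1422 to 1945 TPM in bon123 ABA and 1203 to 2563 TPM in the WT libraries. The other 7 root markers had sums from 19.4 to 123.5 TPM in the WT libraries and from 51.7 to 207 TPM in those of bon123. A difference between the genotypes and a difference in the share of green shoot tissue between their libraries cannot be told apart here, nor can fewer cells of a type and less RNA per cell. Replicate 3 of bon123 ABA stood apart from the rest of its group, with 21893 genes above 0 against 23112 and 23138. Ribosomal RNA took 5.90% to 10.1% of TPM in bon123 mannitol and 6.10% in WT mock replicate 1, against at most 2.21% in the other libraries.

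**Figure D1:**
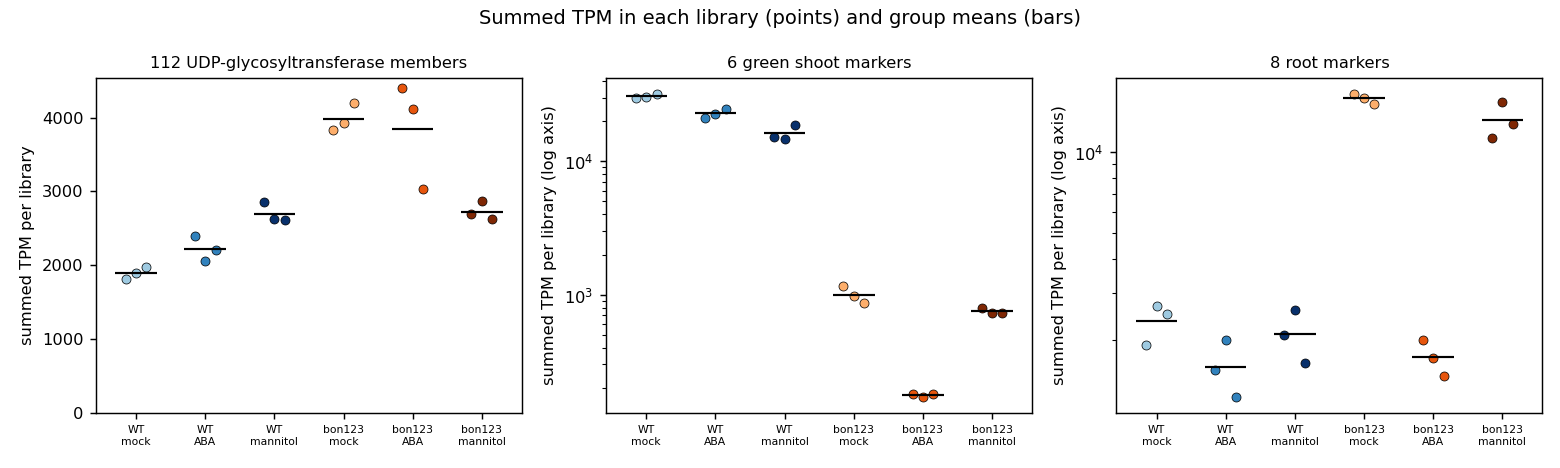
Summed TPM per library of the 112 members (linear axis) and of 6 green shoot and 8 root markers (log axes), by group; points are libraries and bars are means of 3. The members sum to 1817 to 1974 TPM in WT mock and to 3832 to 4194 TPM in bon123 mock, while the green shoot markers sum to 169 to 1156 TPM in bon123 libraries.

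The upstream sequences of the UGT genes at the extremes of the ABA response in WT are shown first, because the ABA-responsive element core ACGTG was searched for in such windows. Each is the 250 bases before the annotated gene start, 5′ to 3′ on the strand of the gene, from the RefSeq annotation of TAIR10.1. Capitals mark ACGTG on that strand or its reverse complement CACGT. UGT73C3, with the largest rise, lies on the minus strand, with the window at chr2:15419392-15419641. UGT76E12, with the next largest rise, lies on the minus strand at chr3:17191168-17191417, where the window overlaps 1 other annotated gene. UGT72E2, with the largest fall, lies on the plus strand at chr5:26624799-26625048.
UGT73C3: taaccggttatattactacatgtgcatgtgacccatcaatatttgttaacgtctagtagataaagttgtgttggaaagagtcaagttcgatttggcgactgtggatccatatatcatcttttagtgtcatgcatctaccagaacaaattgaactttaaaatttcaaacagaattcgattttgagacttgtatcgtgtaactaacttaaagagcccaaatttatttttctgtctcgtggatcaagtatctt
UGT76E12: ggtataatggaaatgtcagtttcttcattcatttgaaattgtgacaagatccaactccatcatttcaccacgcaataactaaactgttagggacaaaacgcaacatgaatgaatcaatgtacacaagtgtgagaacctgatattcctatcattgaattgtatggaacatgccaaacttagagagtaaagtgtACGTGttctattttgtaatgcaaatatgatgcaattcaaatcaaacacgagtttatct
UGT72E2: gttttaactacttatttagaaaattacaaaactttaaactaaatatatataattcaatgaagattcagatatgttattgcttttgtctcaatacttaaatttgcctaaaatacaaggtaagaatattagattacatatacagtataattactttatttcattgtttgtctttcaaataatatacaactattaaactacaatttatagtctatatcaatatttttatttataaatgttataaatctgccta
The window of UGT76E12 held 1 match and the windows of UGT73C3 and UGT72E2 held 0. Among the 92 UGT genes, 28 (30.43%) had a match on either strand, against 24.39% of the 20299 protein-coding genes tested and 22.91% of all 27443 protein-coding windows. The share was 11 of 33 (33.33%) for UGT genes called higher with ABA in WT, 7 of 29 (24.14%) for those called lower and 10 of 30 (33.33%) for those not called. The genes that rose thus held the ACGTG core as often as those not called. Other elements were searched for as well. The W-box core TTGAC was in 57.58% of the genes called higher, 51.72% of those lower and 46.67% of those not called. For the DRE core CCGAC these shares were 15.15%, 13.79% and 6.67%, and for the G-box CACGTG 9.09%, 0% and 3.33%. Among the tested protein-coding genes they were 45.48% (TTGAC), 12.8% (CCGAC) and 7.54% (CACGTG). No difference in these shares was tested.

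In WT mock seedlings the members summed to 1896 ± 78.4 TPM (mean ± SD, n = 3). The highest group means there were 131.5 TPM for UGT88A1, 113.9 TPM for UGT74C1 (glucosinolate synthesis), 98.8 TPM for UGT89C1 and 81.3 TPM for UGT78D1 (both flavonol rhamnosyltransferases). The sum was 2215 ± 168 TPM in WT ABA and 2695 ± 138 TPM in WT mannitol. In bon123 it was 3982 ± 189 TPM in mock, 3846 ± 726 TPM with ABA and 2726 ± 131 TPM with mannitol. The order of the genes differed there, with UGT74F2 (salicylate glucosyl ester synthesis) first in each bon123 group, at 403.0 TPM in mock. Over all 18 libraries, the 5 members with the highest mean were UGT74F2, UGT85A2, UGT72B1, UGT87A2 and UGT76B1. The mean level was below 1 TPM for 7 members, 1 to 10 TPM for 45, 10 to 50 TPM for 43, 50 to 100 TPM for 10 and 100 TPM or more for 7.

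ABA raised and lowered similar numbers of UGT transcripts in WT. Differences were tested with limma on log2(TPM + 1), and a gene was called, and is said to rise or fall, at a Benjamini-Hochberg adjusted p under 0.05 over all 21727 genes. Fold changes are log2 differences with their standard error and n = 3 libraries per group. Of the 112 members, 36 rose and 33 fell, against 18.9% of all genes called higher and 30.6% called lower (49.5% in either direction). The median change of the members was 0.16 and that of all genes -0.11. The change was at least 2-fold in 17 of the rises and 16 of the falls. In WT the green shoot markers summed to 30028 to 32237 TPM in mock and 21318 to 24806 TPM with ABA, and their part in these changes was not tested.

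UGT73C3 was at 1.01, 0.82 and 0.34 TPM in WT mock and 41, 31.1 and 29.3 TPM with ABA. It rose by 4.34 ± 0.25 (adjusted p = 1.4e-09), and every ABA library lay far above every mock library. Its neighbour UGT73C4 went from 0.09, 0.57 and 0.43 TPM to 7.97, 4.66 and 7.61 TPM, a rise of 2.49 ± 0.18 (adjusted p = 2e-08). The coding sequences of this pair are 91.28% identical, so reads may be shared between them and the single values are uncertain. UGT76E12 was at 0, 0.43 and 0.38 TPM in mock and 17.8, 10.1 and 11.5 TPM with ABA, a rise of 3.45 ± 0.21 (adjusted p = 2.4e-09). Its coding sequence is 87.73% identical to that of UGT76E11, which rose by 0.90 ± 0.22, and it overlaps an opposite-strand locus that is also a member. UGT91C1 was at 0.31, 0.73 and 0.49 TPM in mock and 10.6, 5.83 and 8.14 TPM with ABA, a rise of 2.58 ± 0.21 (adjusted p = 6.4e-08). These genes were near or below 1 TPM in mock seedlings, where the pseudocount makes the fold changes smaller than the ratios. All 5 called members of the 6 kept UGT73C genes rose (18.9% of all genes).

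The deepest falls were those of UGT72E2 and UGT72E1, and all 3 UGT72E genes fell (30.6% of all genes). They glucosylate monolignols, the building blocks of lignin. UGT72E2, which makes the glucosides of coniferyl and sinapyl alcohol, was at 34.05, 50.3 and 50.97 TPM in WT mock and 2.85, 3.02 and 1.51 TPM with ABA, so it fell by 3.74 ± 0.26 (adjusted p = 1.3e-08). UGT72E1, which acts on coniferyl and sinapyl aldehyde, was at 27.7, 32.4 and 43.6 TPM and 2.02, 1.66 and 1.86 TPM, so it fell by 3.62 ± 0.15 (adjusted p = 4.9e-11). UGT72E3, 89.49% identical to UGT72E2 in coding sequence, was at 3.15, 3.98 and 3.16 TPM and 0.65, 0.93 and 0.38 TPM, so it fell by 1.43 ± 0.21. In none of the UGT72E genes did the mock and ABA libraries overlap, and 61.5% of all genes showed no overlap either. UGT71C1 fell by 1.65 ± 0.29 (adjusted p = 2e-04), from 8.15, 12.98 and 15.4 TPM to 3.24, 4.42 and 1.97 TPM.

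**Figure D2:**
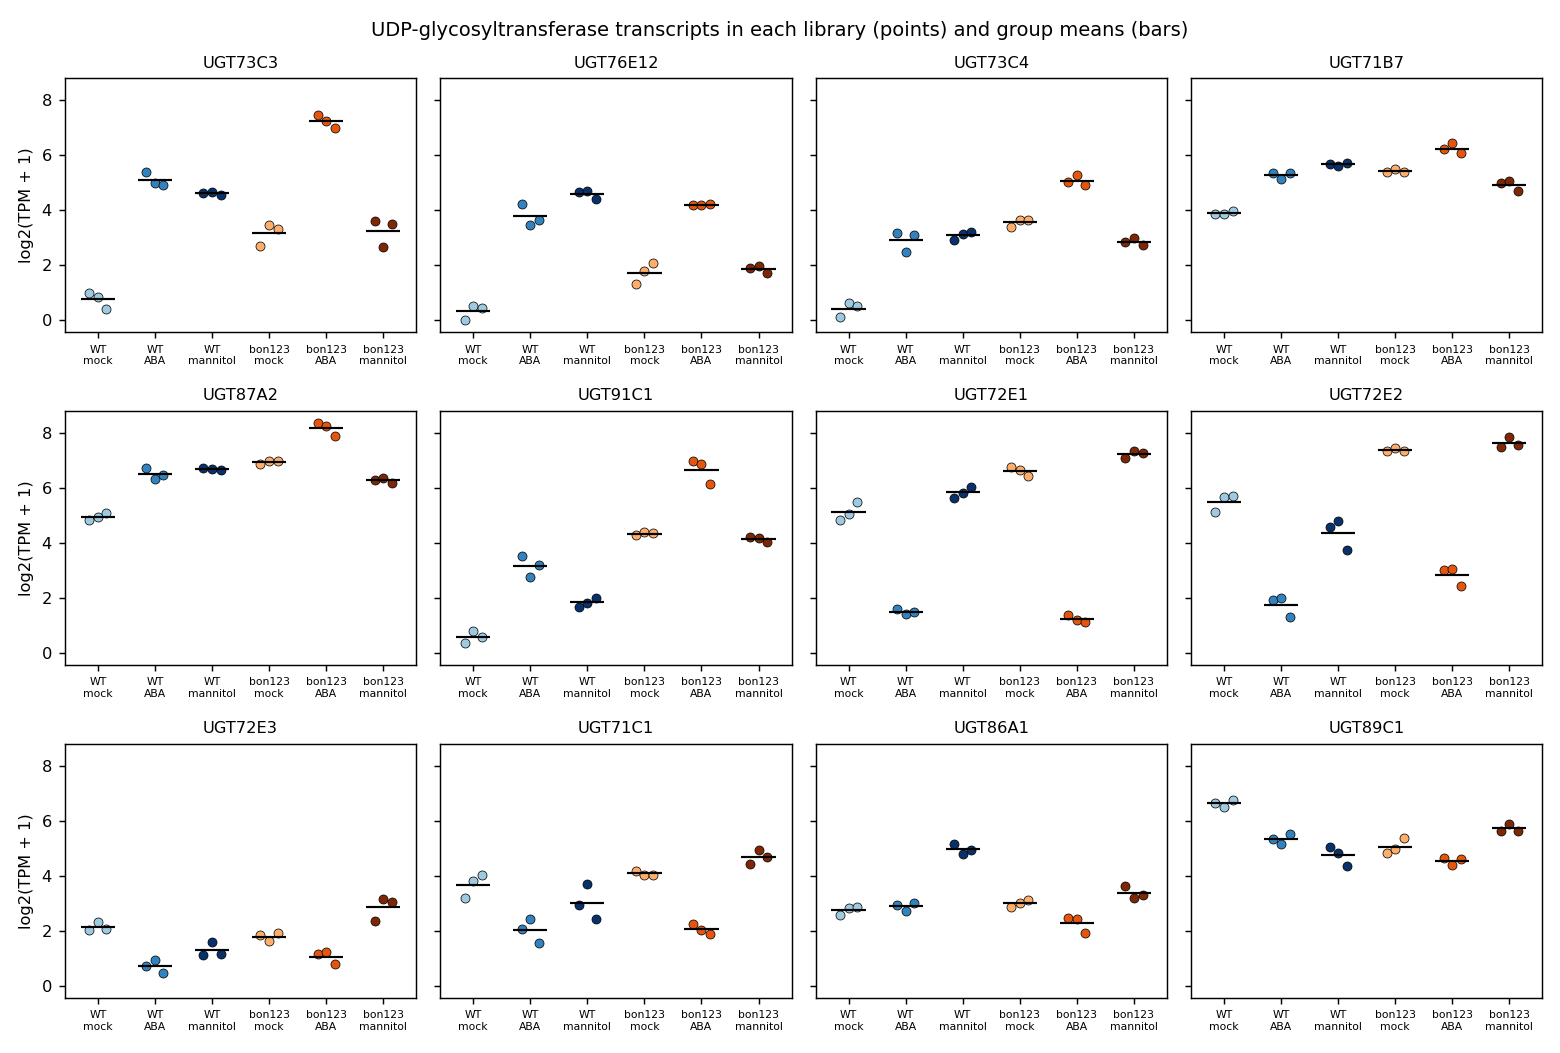
Level of 12 UGT genes as log2(TPM + 1) in each library (points), with group means (bars), in WT (blue) and bon123 (orange). UGT72E1 lies at 1.21 to 2.02 TPM in the 6 ABA libraries, and UGT73C3 and UGT76E12 are high with ABA in both genotypes but with mannitol in WT and not in bon123.

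Mannitol in WT raised more UGT transcripts than it lowered. Of the members, 44 rose and 25 fell, against 25.5% of all genes called higher and 25% called lower (50.5% either way). The median change was 0.21 for the members and 0.02 for all genes, and 26 rises and 7 falls were at least 2-fold. The green shoot marker sum was 14695 to 18835 TPM with mannitol against 30028 to 32237 TPM in mock, and its part was not tested. UGT76E12 reached 24.6, 25.1 and 20.5 TPM with mannitol (rise of 4.27 ± 0.21, adjusted p = 2.6e-10). UGT73C3 reached 23.5, 24.4 and 22.6 TPM (rise of 3.85 ± 0.25) and UGT73C4 6.51, 7.93 and 8.35 TPM (rise of 2.67 ± 0.18). All 6 kept UGT73C genes rose. Among members at a mean log2 value of at least 2, the largest falls were those of UGT89C1 and UGT78D1, described with the flavonoid genes, and of UGT72E2, at 23.3, 27.1 and 12.3 TPM (fell by 1.12 ± 0.26, adjusted p = 0.0019). UGT72E1 went the other way, at 48.96, 55.8 and 65.4 TPM, a rise of 0.71 ± 0.15 (adjusted p = 0.00091).

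The responses of WT to ABA and to mannitol share the mock libraries, so the treatments were compared directly. With ABA, 16 members were higher and 36 lower than with mannitol, against 11% of all genes called higher and 19.1% called lower (30.1% either way). The median difference was -0.20 for the members and -0.10 for all genes. The count of higher members was 10 without WT mannitol replicate 3. UGT72E1 was lower with ABA by 4.33 ± 0.15 on the log2 scale (adjusted p = 1.5e-10) and UGT72E2 by 2.62 ± 0.26 (adjusted p = 2e-06). UGT86A1 was at 4.99, 6.06 and 6.27 TPM in mock, 6.63, 5.69 and 7.13 TPM with ABA and 34.5, 26.6 and 30.1 TPM with mannitol. Its mock and ABA libraries overlapped, and the mannitol libraries stood apart (ABA against mannitol -2.07 ± 0.16, adjusted p = 2e-07). The largest differences in favour of ABA were 1.32 ± 0.21 for UGT91C1, 1.28 ± 0.26 for UGT75C1 and 0.95 ± 0.29 for UGT91A1. The call of UGT91A1 was lost without WT ABA replicate 2 or 3 or WT mannitol replicate 3.

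Among the UGT genes known to conjugate ABA, UGT71B7 was at 13.7, 13.5 and 14.6 TPM in WT mock, 39.99, 34.1 and 39.7 TPM with ABA and 50.96, 47.4 and 51.2 TPM with mannitol. It rose by 1.38 ± 0.11 (adjusted p = 5.9e-08) and 1.77 ± 0.11 (adjusted p = 3.4e-09). UGT71C5, a major enzyme of ABA glucosyl ester synthesis, moved little, at 14.1, 13.8 and 15.1 TPM in mock, 11.2, 12.5 and 11.2 TPM with ABA and 18.3, 18.3 and 17.5 TPM with mannitol. Its ABA change was -0.28 ± 0.08 (adjusted p = 0.0087), a call that another scaling of the libraries did not keep, and its mannitol change was 0.31 ± 0.08 (adjusted p = 0.0041). UGT71B6 was weak, between 0 and 2.61 TPM in WT, and was called in neither response. UGT71B8, the other gene of the list, was below the level limit.

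In the salicylate and immune-signal group, 4 of 6 genes rose and 1 fell with ABA in WT, and 3 rose and 1 fell with mannitol. The shares of all genes called higher and lower were 18.9% and 30.6% with ABA and 25.5% and 25% with mannitol. UGT74F2, which makes the glucosyl ester of salicylate, was at 36.4, 46.6 and 57.99 TPM in WT mock, 157, 100.40 and 122 TPM with ABA and 122, 127 and 102 TPM with mannitol. It rose by 1.41 ± 0.17 (adjusted p = 5.3e-06) and 1.32 ± 0.17 (adjusted p = 8.9e-06). UGT89A2, which conjugates dihydroxybenzoic acids, rose by 1.13 ± 0.12 with ABA and 1.34 ± 0.12 with mannitol. UGT71C3, which acts on methyl salicylate, rose with ABA by 0.67 ± 0.15 and had a mannitol change of 0.17 ± 0.15 that was not called. UGT74F1 (salicylate glucoside) rose by 0.56 ± 0.21 and 0.58 ± 0.21, with calls lost when single libraries were left out. UGT76D1, on dihydroxybenzoic acids, fell by 0.74 ± 0.18 and by 0.57 ± 0.18, the latter a call lost without WT mock replicate 2 or 3 or WT mannitol replicate 3. UGT76B1, which glucosylates isoleucic acid, N-hydroxypipecolic acid and salicylate, overlapped between mock (11.6, 18.96 and 21.9 TPM) and ABA (37.1, 27.7 and 19.9 TPM) and was not called, although median-of-ratios scaling called its rise (0.73).

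In the auxin group, 2 of the 4 kept genes rose with ABA in WT (18.9% of all genes) and all 4 rose with mannitol (25.5% of all genes). UGT74E2, which glucosylates indole-3-butyric acid, was at 10.3, 15.03 and 14.2 TPM in WT mock, 67.1, 45.6 and 53.8 TPM with ABA and 83.7, 65.6 and 70.5 TPM with mannitol. It rose by 1.99 ± 0.18 (adjusted p = 2.7e-07) and 2.40 ± 0.18 (adjusted p = 3.1e-08). Its neighbour UGT74E1, 89.5% identical in coding sequence, changed by 0.01 ± 0.21 with ABA and rose by 1.31 ± 0.21 with mannitol. UGT75B1, which acts on indole-3-acetic acid and p-aminobenzoate, was at 32.1, 38.8 and 41.8 TPM in mock, 98.9, 63.2 and 77.99 TPM with ABA and 143, 112 and 121 TPM with mannitol. It rose by 1.05 ± 0.17 and 1.71 ± 0.17. UGT75D1 and UGT74D1, also on auxins, rose with mannitol by 0.62 ± 0.14 and 0.51 ± 0.16, while their ABA changes of 0.20 and 0.21 were not called (the former was called with median-of-ratios scaling, at 0.27). The mannitol call of UGT74D1 was lost without WT mock replicate 1 or WT mannitol replicate 1. UGT84B1 and UGT76F1 were below the level limit.

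Cytokinin genes moved in both directions. UGT73C1, an O-glucosyltransferase of zeatin, rose from 2.86, 2.83 and 2.88 TPM in WT mock to 17.5, 10.9 and 14.1 TPM with ABA and 28.4, 19.9 and 20.4 TPM with mannitol, by 1.95 ± 0.16 (adjusted p = 1.1e-07) and 2.61 ± 0.16 (adjusted p = 3.8e-09). The N-glucosyltransferase UGT76C1 rose by 0.92 ± 0.14 and 0.66 ± 0.14. The related UGT76C2 went from 10.3, 14.03 and 14.1 TPM to 3.51, 4.29 and 4.31 TPM with ABA and 6.59, 6.72 and 5.6 TPM with mannitol, and it fell by 1.44 ± 0.12 and 0.91 ± 0.12. Neighbouring N-glucosyltransferase genes thus moved in opposite directions. UGT85A1, which O-glucosylates trans-zeatin, rose with ABA by 0.77 ± 0.21 and was not called with mannitol (-0.05 ± 0.21). In the brassinosteroid group, UGT73C5, which also detoxifies deoxynivalenol, rose with mannitol by 1.90 ± 0.17, from 11.2, 14.1 and 14.8 TPM to 58.9, 44.4 and 55.1 TPM. Its ABA rise of 0.54 ± 0.17 was lost without WT mock replicate 1 or WT ABA replicate 1. UGT73C6, 91.01% identical to it, was at 1.75, 0 and 2.88 TPM in mock, and its mannitol rise of 1.40 ± 0.50 was lost without any of 3 libraries in turn. The jasmonate gene UGT76E1 was below the level limit.

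The flavonol rhamnosyltransferase genes fell in WT. UGT78D1, a flavonol 3-O-rhamnosyltransferase, was at 85.5, 72.96 and 85.4 TPM in mock, 37.4, 36.4 and 38.6 TPM with ABA and 23.7, 24.8 and 26.6 TPM with mannitol. It fell by 1.09 ± 0.13 (adjusted p = 4.9e-06) and 1.66 ± 0.13 (adjusted p = 4.5e-08). UGT89C1, a flavonol 7-O-rhamnosyltransferase, was at 100.36, 89.3 and 107 TPM, 39.4, 34.5 and 44.6 TPM and 32.4, 27.6 and 19.5 TPM, and it fell by 1.31 ± 0.17 and 1.89 ± 0.17. The groups did not overlap in either gene. Of all genes, 61.5% showed no overlap between ABA and mock and 61% between mannitol and mock. UGT79B2, linked to anthocyanin rhamnosylation, fell by 0.59 ± 0.16 and 0.66 ± 0.16. UGT78D2, a flavonoid 3-O-glucosyltransferase, was called in neither response (0.13 ± 0.16 and -0.19 ± 0.16). The anthocyanin 5-O-glucosyltransferase UGT75C1 went the other way with ABA, from 14.1, 8.06 and 8.83 TPM to 35.1, 35.3 and 41.5 TPM, a rise of 1.79 ± 0.26 (adjusted p = 3.9e-05). Its mannitol libraries, at 22.7, 8.38 and 16.3 TPM, overlapped the mock libraries. UGT79B1, another anthocyanin gene whose row does not carry the family name and so is no member, was at 3.18 to 7.49 TPM in mock and 14.1 to 16.4 TPM with ABA, also without overlap.

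Of the 8 phenylpropanoid genes, 3 rose and 5 fell with ABA in WT (18.9% and 30.6% of all genes), and 4 rose and 3 fell with mannitol (25.5% and 25%). Besides the UGT72E genes, the hydroxycinnamate ester genes divided. UGT84A1 fell by 1.41 ± 0.21 with ABA and 1.47 ± 0.21 with mannitol. UGT84A2, which makes sinapoyl glucose, fell with ABA by 1.18 ± 0.23 and was not called with mannitol (-0.39 ± 0.23). Their relative UGT84A3 was at 32.7, 34.3 and 37.3 TPM in mock, 59.03, 49.2 and 65.1 TPM with ABA and 114, 83.1 and 92.9 TPM with mannitol, rises of 0.71 ± 0.13 and 1.44 ± 0.13. UGT73C7, on p-coumarate and ferulate, rose by 1.27 ± 0.15 and 0.83 ± 0.15. UGT72B1, which conjugates monolignols and chlorinated xenobiotics, rose by 1.01 ± 0.36 with ABA, a call lost without WT mock replicate 1 or WT ABA replicate 1, and by 1.26 ± 0.36 with mannitol. The glucosinolate genes were lower. UGT74C1 was at 121, 113 and 108 TPM in mock and 67.1, 68.7 and 73.95 TPM with ABA, so it fell by 0.70 ± 0.11, and fell by 0.82 ± 0.11 with mannitol. UGT74B1 fell with ABA by 0.44 ± 0.15, a call lost without any of 3 single libraries, and was not called with mannitol (-0.29 ± 0.15), except with median-of-ratios scaling (-0.37).

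The 4 kept UGT73B genes, a clade with pathogen- and redox-responsive members, all rose with mannitol in WT, while 1 of the 4 rose with ABA. Of all genes, 25.5% were called higher with mannitol and 18.9% with ABA. UGT73B5 was at 10.1, 17.2 and 20.8 TPM in mock, 33.5, 24.2 and 24.3 TPM with ABA and 87.2, 96.8 and 86.5 TPM with mannitol, where it rose by 2.48 ± 0.24 (adjusted p = 3.7e-07). Its ABA rise of 0.78 ± 0.24 was lost without WT mock replicate 1 or WT ABA replicate 1. UGT73B4 and UGT73B3 rose with mannitol by 1.56 ± 0.23 and 1.09 ± 0.25. UGT73B1, named after its values were seen, was at 32.4, 40.96 and 36.8 TPM in mock, 29.4, 33.4 and 33.9 TPM with ABA (-0.18 ± 0.20, not called) and 72.01, 68.8 and 71.3 TPM with mannitol, a rise of 0.93 ± 0.20. All 4 were lower with ABA than with mannitol in the direct comparison (19.1% of all genes), UGT73B5 by 1.70 ± 0.24 on the log2 scale (adjusted p = 5.3e-05). UGT87A2, known from flowering time and abiotic stress, rose from 27.3, 29.6 and 33.04 TPM to 106, 79.6 and 88.8 TPM with ABA and 104, 102 and 101 TPM with mannitol, by 1.57 ± 0.12 and 1.74 ± 0.12.

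**Figure D3:**
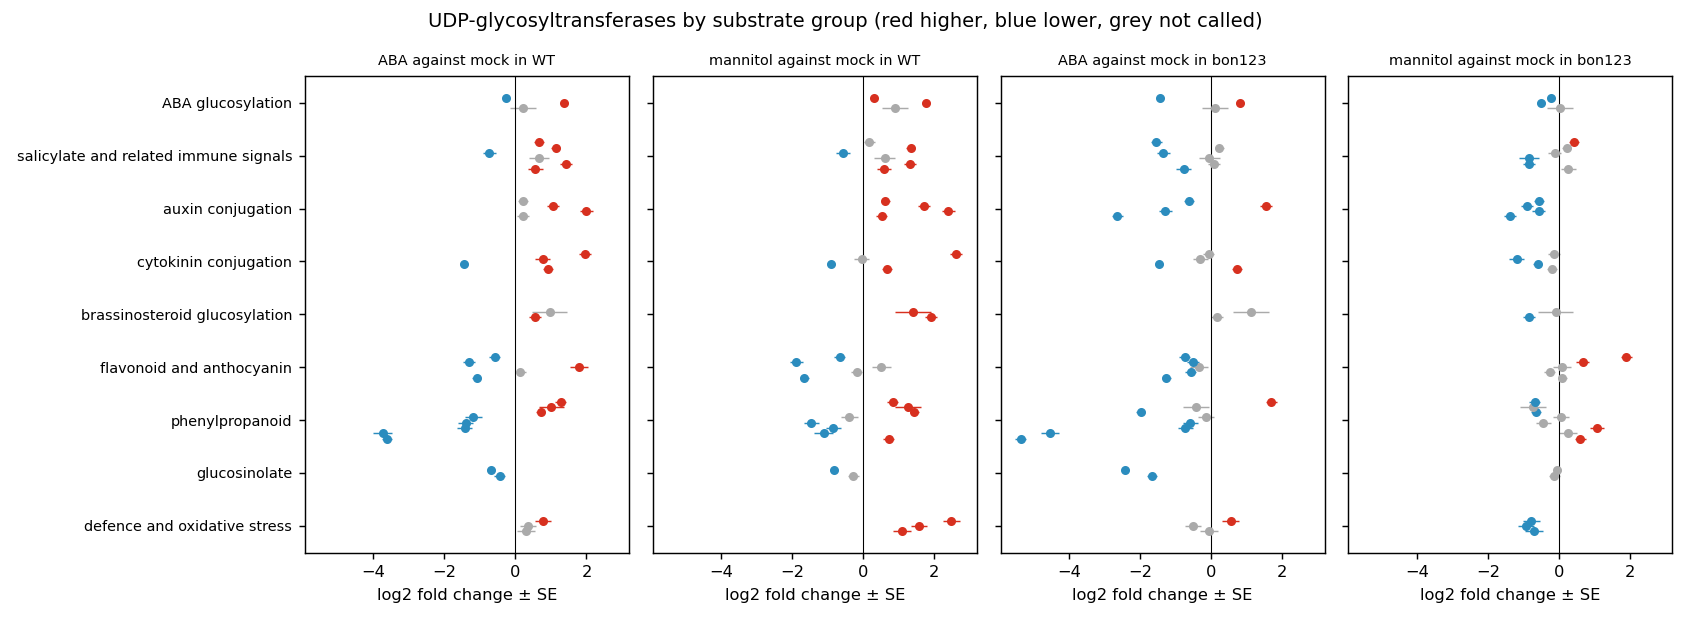
Log2 fold change ± SE of the kept UGT genes by substrate group for ABA and mannitol in each genotype (n = 3 libraries per group); red points were called higher, blue lower, grey not called. UGT73B3, UGT73B4 and UGT73B5 of the defence group lie between 1.09 and 2.48 with mannitol in WT and between -0.93 and -0.71 in bon123.

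In bon123, UGT73C3, UGT91A1 and UGT90A1 rose most with ABA and UGT72E1, UGT72E2 and UGT76C5 fell most, among members at a mean log2 value of at least 2. Of the members, 24 rose and 61 fell, against 15.1% of all genes called higher and 55.5% called lower (70.6% either way). The median was -0.52 for the members and -0.51 for all genes. With libraries scaled by the median of ratios, which set the median of all genes to -0.03, 36 members rose and 31 fell, so the split depends on the scaling. Without bon123 ABA replicate 3 the counts were 25 and 55. UGT73C3 was at 5.51, 10.03 and 8.93 TPM in bon123 mock and 176, 149.63 and 126 TPM with ABA, a rise of 4.07 ± 0.25 (adjusted p = 5.7e-10). UGT90A1 went from 36.1, 33.3 and 38.8 TPM to 273, 208 and 149.63 TPM, a rise of 2.47 ± 0.19. UGT91A1 went from 0.18, 0.21 and 1.31 TPM to 13.3, 9.86 and 11.6 TPM, a rise of 3.07 ± 0.29. No library of these ABA groups overlapped its mock group, and 72.2% of all genes showed no overlap in this comparison.

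UGT72E1 was at 109, 98.8 and 86.6 TPM in bon123 mock and 1.65, 1.33 and 1.21 TPM with ABA, so it fell by 5.37 ± 0.15 (adjusted p = 1.8e-13). UGT72E2 went from 164, 173 and 161 TPM to 7.22, 7.33 and 4.41 TPM, so it fell by 4.54 ± 0.26 (adjusted p = 3.1e-10). These monolignol genes fell with ABA in both genotypes, and UGT72E1 fell further in bon123 (interaction -1.75 ± 0.21, adjusted p = 6.3e-06). UGT76C5 fell by 2.90 ± 0.15, from 15.1, 17.2 and 17.6 TPM to 1.7, 1.63 and 0.86 TPM. The glucosinolate gene UGT74C1 went from 5.92, 5.96 and 6.14 TPM to 0.36, 0.25 and 0.32 TPM, so it fell by 2.42 ± 0.11. The ABA gene UGT71B7 rose by 0.81 ± 0.11, and UGT71C5 went from 38.1, 38.7 and 38.1 TPM to 15.1, 12.3 and 13.2 TPM, so it fell by 1.44 ± 0.08. The green shoot marker sum in bon123 was 860 to 1156 TPM in mock and 169 to 180.5 TPM with ABA, and its part was not tested. Of the 36 members that rose with ABA in WT, 17 also rose in bon123 (47.2% of the WT list and 70.8% of the bon123 list), 8 fell and 11 were not called. Over all tested genes the shares called higher in both were 51.6% and 64.6%. The 36 members' median change in bon123 was 0.26, and 0.87 with median-of-ratios scaling. Of the 33 that fell in WT, 27 also fell in bon123 (81.8% and 44.3%, against 83.4% and 46% over all genes) and 0 rose.

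UGT76E12, UGT73C3 and UGT73C4 had the largest mannitol rises in WT, and their changes in bon123 were far smaller. Of the members, 19 rose and 38 fell, against 12.6% of all genes called higher and 48.8% called lower (61.5% either way), with medians of -0.14 and -0.36. With median-of-ratios scaling, which set the median of all genes to 0.01, 43 members rose and 15 fell. UGT76E12 was at 1.5, 2.5 and 3.24 TPM in bon123 mock and 2.78, 2.91 and 2.29 TPM with mannitol (0.13 ± 0.21, not called), where median-of-ratios scaling gave a called rise of 0.49 (adjusted p = 0.0495). UGT73C3 was at 11.2, 5.29 and 10.4 TPM with mannitol (0.10 ± 0.25, and 0.55 after that scaling, called under neither), and its mock and mannitol libraries overlapped. UGT73C4 fell by 0.70 ± 0.18, a call that this scaling did not keep (-0.25, adjusted p = 0.26). The lower response of each of these genes in bon123 was called under both scalings. Of the 44 members that rose in WT, 4 rose in bon123 (9.1% of the WT list and 21.1% of the bon123 list), 20 fell and 20 were not called. Over all tested genes those shares were 16.2% and 32.6%. The 44 members' median change in bon123 was -0.43, and -0.01 with median-of-ratios scaling. Of the 25 that fell in WT, 5 rose, 5 fell and 15 were not called, so 20% of the WT list and 13.2% of the bon123 list were shared, against 44.8% and 22.9% over all genes.

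The largest mannitol rises in bon123 were those of UGT79B2, from 7.87, 5.71 and 7.23 TPM to 23.9, 28.3 and 33.8 TPM (1.90 ± 0.16, adjusted p = 9.2e-08), and of UGT79B4, from 1.83, 1.55 and 1.99 TPM to 6.53, 8.07 and 6.7 TPM (1.54 ± 0.23). UGT79B2 fell in WT. Of the 7 kept UGT79B genes, 6 rose with mannitol in bon123 and 1 in WT (12.6% and 25.5% of all genes). The bon123 calls of UGT79B9 and UGT79B11 were lost when single libraries were left out, and the mock and mannitol libraries of UGT79B11 overlapped. UGT91A1 rose by 1.15 ± 0.29. The largest falls were in AT2G31751, an opposite-strand locus that overlaps UGT74D1 (-1.73 ± 0.14), in UGT73D1 (-1.45 ± 0.19) and in AT5G65685 (-1.43 ± 0.15). UGT74D1 itself fell by 1.39 ± 0.16, and reads of this overlapping pair cannot be told apart. All 4 kept UGT73B genes and all 4 auxin genes were called lower (48.8% of all genes). With median-of-ratios scaling UGT73B1 (-0.62), UGT74D1 (-0.89) and UGT75B1 (-0.40) kept the call, and UGT73B3, UGT73B4, UGT73B5, UGT74E2 and UGT75D1 lost it. UGT71C5 reversed under that scaling, from -0.22 to 0.28.

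**Figure D4:**
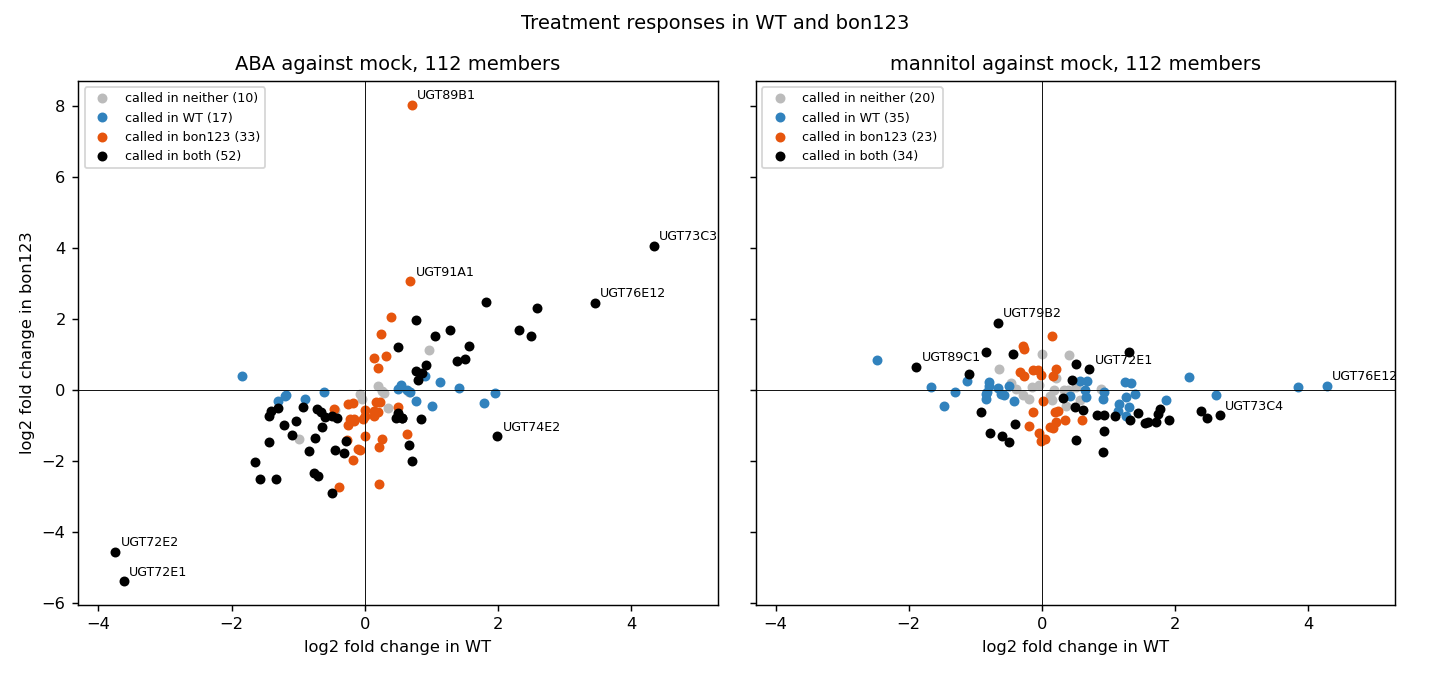
Log2 fold change of the 112 members in WT (horizontal) and bon123 (vertical) for ABA and mannitol against mock, coloured by the genotype in which a member was called. UGT72E1 and UGT72E2 lie low in both genotypes with ABA, whereas with mannitol UGT76E12 lies at 4.27 in WT and 0.13 in bon123.

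The 2 genotypes differed in UGT levels before any treatment. Such differences cannot be told apart from the difference in green shoot markers given above. In mock, 55 members were higher and 33 lower in bon123, against 40.1% of all genes called higher and 33.7% called lower (73.8% either way), with medians of 0.41 and 0.13. The salicylate and immune-signal genes were mostly higher, 5 of 6 with 0 lower. UGT74F2 was at 376, 411 and 422 TPM in bon123 mock, higher by 3.10 ± 0.17 (adjusted p = 1.1e-10). UGT76B1 was at 227, 232 and 241 TPM, higher by 3.71 ± 0.29 (adjusted p = 8.1e-09). Neither gene overlapped with WT, and 80.6% of all genes showed no overlap in this comparison. The 4 UGT73B genes were also higher in bon123 mock, UGT73B1 at 265, 269 and 345 TPM (2.96 ± 0.20) and UGT73B4 at 202, 216 and 253 TPM against 15.5, 30.3 and 31.99 TPM (3.12 ± 0.23). UGT85A2 was at 297, 303 and 285 TPM against 27.6, 34.1 and 41.9 TPM (3.08 ± 0.15). The cytokinin gene UGT85A1 was higher by 2.74 ± 0.21.

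The largest genotype differences in mock were 3.94 ± 0.19 for UGT73D1, 3.76 ± 0.21 for UGT91C1 and 3.74 ± 0.27 for UGT76E4. UGT73D1 was at 30.5, 32.95 and 37.2 TPM in bon123 and 0.95, 1.2 and 1.65 TPM in WT. In the other direction, among members at a mean log2 value of at least 2, were UGT78D1 (-4.60 ± 0.13), UGT71B2, which glucosylates hypostatin (-4.21 ± 0.13), and UGT74C1 (-4.03 ± 0.11). UGT78D1 was at 2.02, 2.16 and 3.1 TPM and UGT71B2 at 0.42, 0.15 and 0.22 TPM in bon123 mock, so both were near the floor of the table there. All 5 kept flavonoid members were lower in bon123 mock (33.7% of all genes). With ABA, 44 members were higher and 44 lower in bon123, against 28.9% of all genes called higher and 47.5% called lower (76.4% either way) with medians of -0.01 and -0.31. Without bon123 ABA replicate 3 these counts were 47 and 43. With mannitol, 47 were higher and 45 lower, against 25.4% of all genes called higher and 49.3% called lower (74.6% either way) with medians of 0.08 and -0.36. UGT73D1 was higher in bon123 under ABA by 3.99 ± 0.19 and under mannitol by 2.98 ± 0.19. UGT73C7 was higher under ABA by 3.92 ± 0.15, and UGT72E2 and UGT71C2 under mannitol by 3.25 ± 0.26 and 2.73 ± 0.20. UGT74C1 and UGT75C1 were lower under ABA by 5.76 ± 0.11 and 5.14 ± 0.26 on the log2 scale, and UGT71B2 and UGT76E11 under mannitol by 5.21 ± 0.13 and 4.22 ± 0.22. These 4 genes were near the floor in bon123 there. UGT74C1 and UGT75C1 were below 1 TPM with ABA, and UGT71B2 and UGT76E11 had means of 0.21 and 1.04 TPM with mannitol.

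The interaction tests whether a response differed between the genotypes, as the response in bon123 minus that in WT. For ABA, 17 members had a higher and 52 a lower response in bon123, against 9.51% of all genes called higher and 43% called lower (52.6% either way), with medians of -0.57 and -0.44. With median-of-ratios scaling the counts were 23 and 30, and without bon123 ABA replicate 3 they were 21 and 50. UGT74E2 rose with ABA in WT and fell in bon123, from 35.3, 33.6 and 46.7 TPM to 17.4, 16.6 and 11.5 TPM (interaction -3.29 ± 0.26, adjusted p = 6.7e-08). UGT84A3 did the same, from 57.1, 52.9 and 47.2 TPM to 13.7, 10.7 and 13.03 TPM (interaction -2.70 ± 0.19, adjusted p = 2e-08). For mannitol, 27 members had a higher and 53 a lower response in bon123, against 17% of all genes called higher and 45.3% called lower (62.3% either way), with medians of -0.48 and -0.42. With median-of-ratios scaling the counts were 38 and 37. UGT76E12 (-4.14 ± 0.29, adjusted p = 2.4e-08), UGT73C3 (-3.75 ± 0.35) and UGT73C4 (-3.37 ± 0.25) had the largest lower responses, and UGT79B2 (2.56 ± 0.22) and UGT89C1 (2.55 ± 0.24) the largest higher ones among members at a mean log2 value of at least 2.

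**Figure D5:**
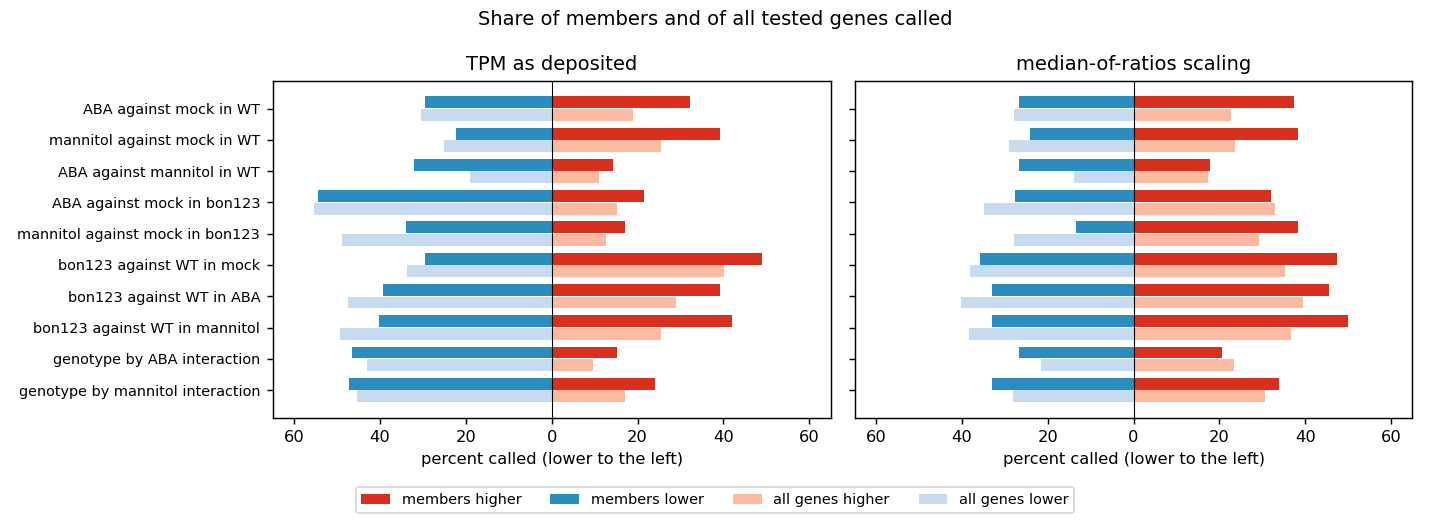
Percent of the 112 members (dark bars) and of all 21727 tested genes (light bars) called higher (right) or lower (left) in the 10 comparisons, with TPM as deposited and with median-of-ratios scaling. With mannitol in bon123, 33.93% of the members are lower as deposited and 13.39% after scaling.

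UGT89B1, which acts on flavonols and benzoates in vitro, was chosen after its values were seen. It was listed at 0 in all WT mock, WT mannitol and bon123 mock libraries, at 3.36, 0 and 0 TPM in WT ABA, at 1.73, 0 and 1.97 TPM in bon123 mannitol and at 318, 273 and 204 TPM in bon123 ABA. The bon123 ABA libraries thus stood apart from all others.

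The supply of UDP-sugars and the turnover of ABA were examined as context. Of 16 tested UDP-sugar genes, 4 rose and 4 fell with ABA in WT, and 4 rose and 4 fell with mannitol. Each count is 25% of the list, near the shares of all genes (18.9% and 30.6% with ABA, 25.5% and 25% with mannitol). The sucrose synthase SUS3, which releases UDP-glucose from sucrose, rose most in both (3.51 and 4.08), from 9.30, 12.3 and 11.4 TPM in mock to 152, 116 and 141 TPM with ABA. The called falls were led by UGD4 (UDP-glucose dehydrogenase, -0.83) with ABA and RHM1 (rhamnose synthesis, -0.998) with mannitol. In bon123 mock, 11 of the 16 were lower and 2 higher than in WT (33.7% and 40.1% of all genes), with UGP3 lowest (-3.07) and SUS3 highest (2.71). Within bon123, 4 rose and 7 fell with ABA (15.1% and 55.5% of all genes), led by SUS1 (2.93) and UGD4 (-1.18), and 2 rose and 6 fell with mannitol (12.6% and 48.8%), led by UGD4 (0.98) and UGP3 (-1.45). Of 9 genes of ABA glucosyl ester hydrolysis, import and ABA hydroxylation, 6 rose and 0 fell in WT with either treatment, against 18.9% of all genes higher with ABA and 25.5% with mannitol. The ABA hydroxylase CYP707A1 rose most with ABA (3.44) and CYP707A3 with mannitol (2.24). In bon123, 4 rose and 4 fell with ABA, and 2 rose and 4 fell with mannitol, against the shares of all genes just given for bon123, led by CYP707A2 (3.14) and CYP707A4 (-1.79) with ABA and by BGLU18 (0.56) and ABCC1 (-1.91) with mannitol. The sterol glucosyltransferase genes UGT80A2 and UGT80B1, which are not members either, rose with mannitol in WT and were not called with ABA.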

How the data were processed

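Total RNA of Arabidopsis seedlings was sequenced in 18 libraries. Tools listed in the submitters' processing notes, with no roles, are DESeq2 1.24.0, RSEM 1.3.1 and HISAT2 2.1.0, with build TAIR10. The deposited table holds TPM made by the authors, 1 column per library; the unit was inferred because values sum to 999989 to 999999 per library. TPM keeps no depth, so depth is unknown and precision rests on 3 libraries per group. The labels do not say that replicates are separate cultures, so the p-values reflect only variation among these samples, which may be technical. The table also has 1 row left empty, without a gene, which was not analysed.

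The 21727 genes reaching 1 TPM in 3 or more libraries were fitted as log2(TPM + 1) with limma 3.58.1 in R 4.3.3 (trend, 6 group means, all 18 libraries, two-sided), adjusted by Benjamini-Hochberg within each of 10 comparisons. The fit was tested on simulated data with independent noise for each gene. Those data held no shifts between whole libraries, so that test cannot speak to the choice of scaling. Genes named were those in the substrate lists, the 3 largest called rises and falls per comparison whose mean log2 value reached 2 and whose groups did not overlap (overlap not applied to interactions), the 5 highest means, and the largest changes in context lists; exceptions are stated. Members and lists were chosen with earlier results of these data known. Replicate numbers were not taken to pair samples: 7 of 45 same-number pairs correlated above 0.1. Pairs of different numbers were not compared, so this cannot exclude pairing. Sequences and coordinates came from RefSeq TAIR10.1, where 99.5% of 32547 gene lengths equalled the longest transcript.

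Alternatives were median-of-ratios scaling, a pseudocount of 0.1, no filter, only the libraries compared, library weights, a replicate block and each of 18 libraries left out.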

Additional observations from a re-analysis of the deposited data

Results flagged for a closer look

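The following members were flagged for a response that differed between bon123 and WT by the interaction test (limma, adjusted p under 0.05). They have the 3 largest higher and 3 largest lower responses per treatment among called members at a mean log2 value of at least 2. Each value is the response in bon123 minus that in WT on the log2 scale. The test called 17 members higher and 52 lower for ABA, and 27 higher and 53 lower for mannitol. Of all genes, it called 52.6% for ABA and 62.3% for mannitol.

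For ABA, the response was higher in bon123 for UGT91A1 (2.38), AT4G19460, a member outside the UGT gene class (1.67) and UGT79B4 (1.33). It was lower in bon123 for UGT74E2 (-3.29), UGT74D1 (-2.85) and UGT84A3 (-2.70). UGT74E2 and UGT84A3 rose in WT and fell in bon123, whereas the WT change of UGT74D1 (0.21) was not called.

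For mannitol, the response was higher in bon123 for UGT79B2 (2.56), UGT89C1 (2.55) and UGT78D1 (1.75), all of which fell in WT. UGT78D1 was near the floor in bon123, at means of 2.43 TPM in mock and 2.64 TPM with mannitol (0.09, not called). The response was lower in bon123 for UGT76E12 (-4.14), UGT73C3 (-3.75) and UGT73C4 (-3.37), which rose in WT. The green shoot markers separate the genotypes under every treatment, and their part in these differences was not tested.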

How the results depend on the processing

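Of 244 results for named genes under 24 alternatives (5856 values), 5697 stayed on their side of the threshold, 94 lost the call and 56 gained it. A further 9 changed sign with a call in the main fit, under the alternative or in both. Of the 5697, 37 changed sign while not called under either setting. All 9 sign changes with a call came from median-of-ratios scaling. For ABA in bon123 the values became 0.61 for UGT73B3, 0.064 for UGT75D1, 0.63 for UGT76B1, 0.085 for UGT78D2, 0.53 for UGT84A2 and 0.16 for UGT89C1. For mannitol in bon123 they became 0.28 for UGT71C5, 0.36 for UGT74B1 and 0.39 for UGT74C1. Not every one of these was called before scaling. UGT73B3 and UGT84A2 with ABA were not, nor were UGT74B1 (-0.14) and UGT74C1 (-0.05) with mannitol, while UGT71C5 (-0.22) was called lower. The same scaling moved members lower with ABA in bon123 from 61 to 31, members higher with mannitol in bon123 from 19 to 43, members lower there from 38 to 15, and members with a lower ABA response in bon123 from 52 to 30. This scaling shifts the median of all genes in bon123 by construction. Leaving out 1 library gave 10 to 17 members higher with ABA than with mannitol in WT, against 16 with all libraries. No other count of members moved by over 1.5 times.

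Replicate numbers were not taken to pair the samples (same-number correlations -0.24 to 0.26, which cannot exclude pairing). With the replicate number as a block, 38 members rose with ABA in WT against 36 without it, and no count of members moved by over 1.5 times; of the 244 results, UGT71B6 with mannitol in WT (0.89, adjusted p = 0.0525 without and 0.0218 with the block) and UGT73C6 with ABA in bon123 gained the call and UGT73B5 with ABA in bon123 lost it.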
